A study of Homo sapiens with 12 samples.

Results

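The miR-181 family was followed in small RNA-seq data of extracellular vesicles (EV) secreted along the cardiac differentiation of human induced pluripotent stem cells (hiPSC). Its members are 6 of the 1133 rows of the miRNA count table, hsa-miR-181a-5p, hsa-miR-181b-5p, hsa-miR-181c-5p, hsa-miR-181d-5p, hsa-miR-181a-3p and hsa-miR-181a-2-3p, written below without the prefix hsa. The family was chosen by the level of miR-181a-5p in these libraries, which an earlier analysis had placed among the miRNA lowest in progenitor EV, so its levels across the stages are given as a description, without a test. All EV came from 1 established line, IMR90-4, in 4 groups of 3 libraries from separate cultures. The hiPSC-EV group was collected at day 0 from undifferentiated cells in expansion medium conditioned for 24 h. The CPC-EV group came from cardiac progenitor cells at day 6, after induction with CHIR99021, Activin A and ascorbic acid and then IWR1, which was also in the differentiation medium conditioned for 72 h. The CMi-EV group came from immature cardiomyocytes at day 15 and the CMm-EV group from cardiomyocytes matured to day 35, each after 48 h of conditioning as 3D aggregates. Maintenance medium was used for CMi-EV, and glucose-free maturation medium with galactose and fatty acids for CMm-EV. Stage and medium therefore cannot be told apart in any comparison, nor can culture format or conditioning time where they differ, while CMi-EV and CMm-EV shared both of the latter.

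A miRNA precursor is a short hairpin that is cut into a duplex of a 5p and a 3p arm, of which 1 is usually kept by the silencing complex. The kept arm pairs with messenger RNA mainly through its seed, bases 2 to 8, and lowers the output of those transcripts. The miR-181 family is broadly expressed in vertebrates and is best known from lymphocyte development, and miR-181c has been described in the mitochondria of heart muscle. The human family is encoded by 3 pairs of hairpins. MIR181A1 (chr1:198859044-198859153, hg38, minus strand) and MIR181B1 (chr1:198858873-198858982, minus strand) lie 61 bases apart in an intron of the long non-coding MIR181A1HG. MIR181A2 (chr9:124692442-124692551, plus strand) and MIR181B2 (chr9:124693710-124693798, plus strand) lie 1158 bases apart in an intron of MIR181A2HG, opposite to an intron of NR6A1. MIR181C (chr19:13874699-13874808, plus strand) and MIR181D (chr19:13874875-13875011, plus strand) lie 66 bases apart in an intron of NANOS3 in GENCODE v44.

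The mature sequences of all 6 members, from RefSeq (GRCh38.p14), are shown because they set what the counts can tell apart. Capitals mark the seed.
miR-181a-5p: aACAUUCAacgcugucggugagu
miR-181b-5p: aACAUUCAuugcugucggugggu
miR-181c-5p: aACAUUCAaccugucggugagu
miR-181d-5p: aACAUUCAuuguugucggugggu
miR-181a-3p: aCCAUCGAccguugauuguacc
miR-181a-2-3p: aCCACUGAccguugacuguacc

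The 4 arms on the 5p side share the seed ACAUUCA, which 5 of the 2370 mature sequences in the RefSeq table carry (0.211%), the other one being miR-4262. Counted from 1 at the 5′ end of miR-181a-5p, miR-181b-5p differs from it by A9U, C10U and A21G. Between miR-181b-5p and miR-181d-5p the only difference is C12U. miR-181c-5p lacks the base at position 11 of miR-181a-5p. The arms miR-181a-3p and miR-181a-2-3p differ by U5C, C6U and U16C, counted on miR-181a-3p, and the first 2 of these lie in the seed, so that the 3p arms do not share one. Both MIR181A1 and MIR181A2 give the same miR-181a-5p, whereas miR-181a-3p comes from MIR181A1 and miR-181a-2-3p from MIR181A2, and only these arms show which hairpin a count came from. Of the 72 values of the members, 3 were not whole numbers, where reads had been divided between sequences.

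The libraries held between 703415 and 6272455 miRNA counts. Levels are given as counts per 1e6 miRNA counts (CPM), scaled by TMM (trimmed means of M values), with factors that ran from 0.499 to 1.75. The limit that a count of 0 allows, 3 counts, stood for 0.639 to 3.65 CPM, which covers counting error only. The summed level of 6 miRNA of pluripotent cells was 172171 to 210182 CPM in hiPSC-EV and 110 to 303 CPM in CMm-EV, where miR-367-3p and miR-372-3p were at 0. The 5 cardiomyocyte miRNA summed to 44.1 to 68.0 CPM in hiPSC-EV and 755 to 1518 CPM in CPC-EV, against 20745 to 75558 CPM in CMi-EV and 37753 to 208458 CPM for CMm-EV. The pair of miRNA of smooth muscle and fibroblasts, miR-143-3p and miR-145-5p, followed the same order, with 237 to 477, 2189 to 4447, 33383 to 60709 and 132715 to 205297 CPM. Endoderm and liver miRNA, 2 of them in the table, summed to 25.6 to 102 CPM in hiPSC-EV and 3311 to 6059 CPM in CPC-EV, above the cardiomyocyte list there, and to 872 to 2245 and 272 to 1334 CPM in CMi-EV and CMm-EV. Of 7 miRNA of blood cells and lymphocytes, 5 were in the table. They summed to 5311 to 8691 CPM in hiPSC-EV and to 728 to 2082 CPM in the other groups, with miR-150-5p at 0 in CPC-EV, CMi-EV and CMm-EV. In CMi-EV only 1 of the 5 had a count, with miR-451a, miR-144-3p and miR-142-5p also at 0. miR-142-5p was at 0 in CPC-EV too, and miR-144-3p in hiPSC-EV and CMm-EV. Those of endothelium stayed at or below 115 CPM and those of neurons at or below 438 CPM, and the latter were at 0 in CMm-EV.

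The family was a minor part of the EV-miRNA at every stage and was most abundant in CMm-EV. It took 0.0258% ± 0.00159 (SD, n = 3) of the miRNA counts in hiPSC-EV and 0.0147% ± 0.0151 in CPC-EV. In the cardiomyocyte groups it took 0.142% ± 0.0771 (CMi-EV) and 0.609% ± 0.237 (CMm-EV). The mean share in CMm-EV was 23.6 times that in hiPSC-EV and 4.28 times that in CMi-EV, and the libraries of these groups did not overlap. The CPC-EV libraries were uneven: CPC-EV 1 and CPC-EV 2 held 0.00565% and 0.00627%, below every hiPSC-EV library, and CPC-EV 3 held 0.0321%, above every one of them. Without CPC-EV 3 the mean of the group was 0.00596%. Whether a change in level lay in the number of EV that carried a miRNA or in the RNA per EV cannot be told apart in these bulk preparations.

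The most abundant member in the mature cardiomyocyte EV was miR-181a-5p. Its level was 50.0, 171 and 199 CPM in hiPSC-EV 1, 2 and 3, and 0, 26.8 and 27.1 CPM in the CPC-EV libraries. It was 351, 355 and 746 CPM in CMi-EV and 7961, 6762 and 5884 CPM in CMm-EV. All 4 groups were thus apart from each other, in the order CMm-EV, CMi-EV, hiPSC-EV and CPC-EV, and the order held on library size alone. By group mean it ranked 148th of 958 miRNA in hiPSC-EV, 283rd of 602 in CPC-EV, and in the cardiomyocyte groups 75th of 516 (CMi-EV) and 22nd of 507 (CMm-EV). In CPC-EV 1, miR-181a-5p had no count in 1680153 miRNA counts, which allows up to 1.15 CPM.

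**Figure D1:**
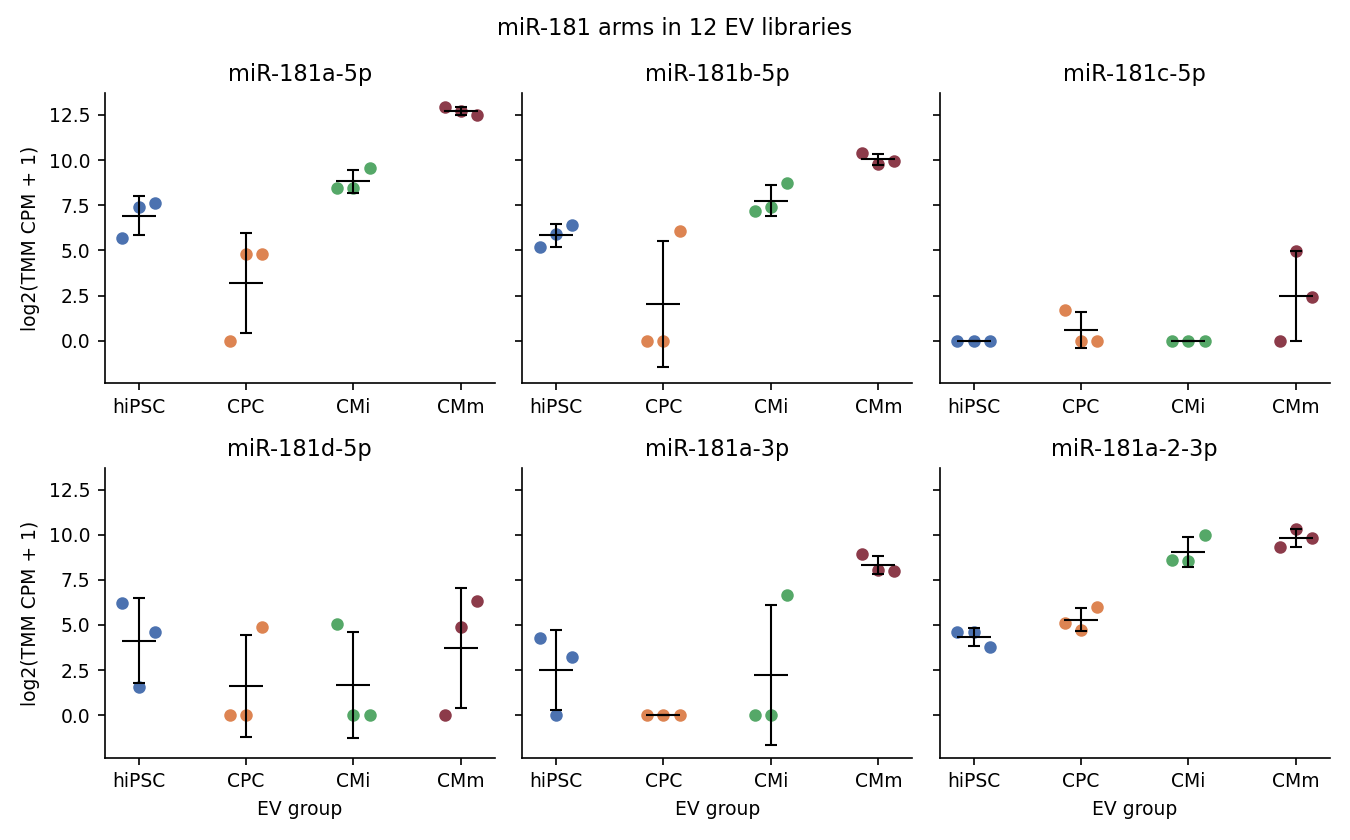
Level of each miR-181 member as log2(TMM CPM + 1) in the 12 libraries, by EV group; points are libraries, the horizontal mark is the group mean and bars are 1 SD (n = 3). miR-181a-5p keeps its 4 groups apart, miR-181a-2-3p is lowest in hiPSC-EV, and miR-181c-5p and miR-181d-5p are at 0 in many libraries.

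miR-181b-5p, which is made beside miR-181a at MIR181A1 and MIR181A2, followed a like course, at a lower level in hiPSC-EV, CMi-EV and CMm-EV. It was measured at 34.9, 58.8 and 83.9 CPM in hiPSC-EV and at 142, 165 and 422 CPM in CMi-EV. In CMm-EV it reached 1342, 881 and 983 CPM. These groups did not overlap. In CPC-EV it had no count in libraries 1 and 2 and 65.8 CPM in library 3, so that CPC-EV overlapped with hiPSC-EV and its mean of 21.9 CPM came from CPC-EV 3 alone. In CMi-EV there were 0.479 ± 0.0808 counts of miR-181b-5p per count of miR-181a-5p (SD, n = 3), and in CMm-EV 0.155 ± 0.0217, without overlap. In hiPSC-EV the ratio was 0.488 ± 0.186. For CPC-EV it was 0 in library 2 and 2.42 in library 3, while library 1 had no count of either. The difference between the cardiomyocyte EV groups was thus larger for miR-181a-5p than for miR-181b-5p.

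The members of the third pair were at 0 in many libraries. miR-181c-5p had no count in hiPSC-EV or CMi-EV. It was present in 1 CPC-EV library at 2.30 CPM and in CMm-EV at 0, 30.3 and 4.34 CPM. miR-181d-5p was scattered over the groups, at 72, 1.99 and 23.9 CPM in hiPSC-EV, and at 28.2 CPM in CPC-EV 3, where it had no count in the other CPC-EV libraries. It was at 32.6 CPM in CMi-EV 1 alone among CMi-EV, and at 0, 28.7 and 80.5 CPM in CMm-EV. No group stood apart for either miRNA, and neither reached 5 CPM in all 3 libraries of a group.

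The 3p arms show the hairpins separately. miR-181a-2-3p, from MIR181A2, was at 23.2, 23.8 and 12.6 CPM in hiPSC-EV and at 34.1, 25.8 and 62.4 CPM in CPC-EV. The progenitor libraries were above the hiPSC-EV ones, the reverse of miR-181a-5p. It was at 391, 365 and 1019 CPM in CMi-EV and at 626, 1251 and 906 CPM in CMm-EV, which overlapped. miR-181a-3p was at 18.6, 0 and 8.31 CPM in hiPSC-EV, where the 0 came from rounding a deposited value above 0. In every CPC-EV library the deposited value itself was 0. miR-181a-3p was at 101 CPM in CMi-EV 3 and had no count in the other CMi-EV libraries. In CMm-EV it was at 479, 264 and 255 CPM, above all other libraries.

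These courses changed the make-up of the family. miR-181a-5p held on average 50.9% of the family counts in hiPSC-EV and 21.9% in CPC-EV, then 37.0% in CMi-EV and 74.1% in CMm-EV. miR-181a-2-3p held 8.29%, 58.9%, 42.8% and 10.3% in the same order. In CMi-EV it was the leading member in all 3 libraries, with 41.2% to 44.5%. In CPC-EV its share ran from 34.0% to 93.7%, and it led in CPC-EV 1 alone, with miR-181a-5p ahead by 108 to 104 counts in CPC-EV 2 and miR-181b-5p by 177 to 168 in CPC-EV 3. The mean share of miR-181b-5p lay between 11.5% in CMm-EV and 22.1% in hiPSC-EV. miR-181d-5p held 14.8% on average in hiPSC-EV, and it led in hiPSC-EV 1, by 62 counts to 43 of miR-181a-5p.

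**Figure D2:**
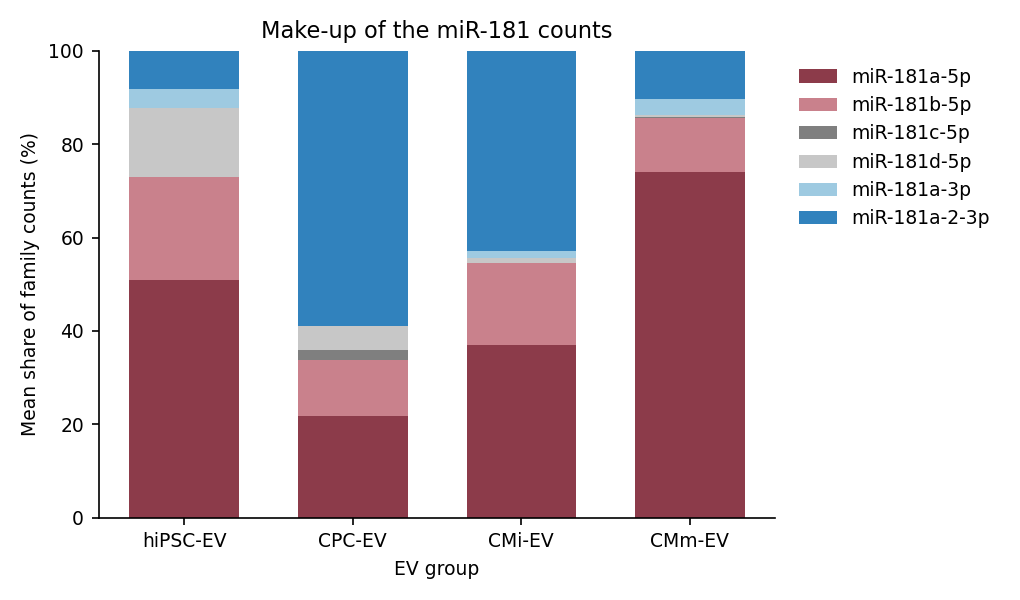
Mean share of each member in the counts of the miR-181 family (%, mean of 3 libraries per EV group, stacked bars). miR-181a-2-3p takes 58.9% in CPC-EV and 42.8% in CMi-EV, and miR-181a-5p takes 74.1% in CMm-EV.

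Within miR-181a, the 5p arm made up 54.4%, 87.8% and 90.5% of all counts of its 5p and 3p arms in hiPSC-EV. In CPC-EV it made up 0%, 50.9% and 30.3%, the first of these being 0 of 89 counts, which allows up to 3.37%. It made up 47.3%, 49.3% and 40.0% in CMi-EV and 87.8%, 81.7% and 83.5% in CMm-EV. The CMm-EV libraries lay above all CPC-EV and CMi-EV libraries and between those of hiPSC-EV, and hiPSC-EV 1, with 79 counts, was the least precise of its group, with an exact Clopper-Pearson 95% interval of 42.8% to 65.7%. Of the 3p counts, miR-181a-2-3p made up 55.6%, 100% and 60.2% in hiPSC-EV and 100% in each CPC-EV library. It made up 100%, 100% and 91.0% in CMi-EV, then 56.7%, 82.6% and 78.0% in CMm-EV. After rounding, miR-181a-3p thus had counts in all CMm-EV libraries, 2 hiPSC-EV libraries and 1 CMi-EV library. The deposited value in hiPSC-EV 2 was above 0, at 0.110 RPM. The intervals cover counting error only, and the arms are captured by ligation with unequal yield, so that shares compare libraries and not molecules.

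**Figure D3:**
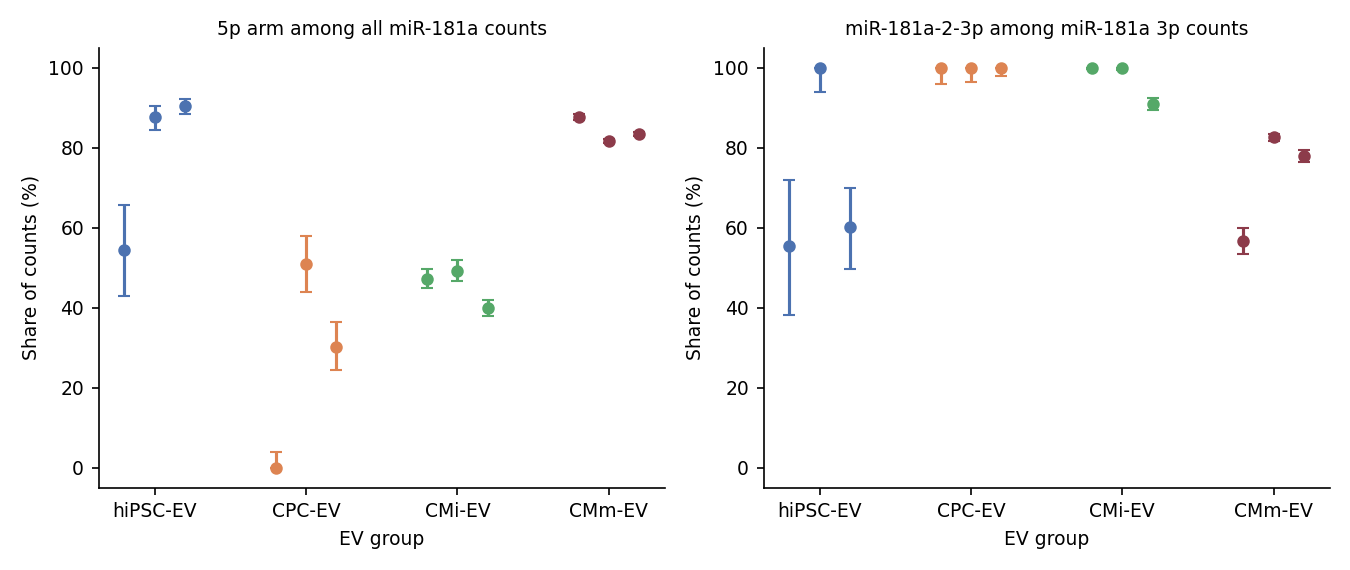
Share of the 5p arm in all miR-181a counts (left) and share of miR-181a-2-3p in the miR-181a 3p counts (right), in %, for each library, with exact 95% Clopper-Pearson intervals. The 5p share is 40.0% to 49.3% in CMi-EV and 81.7% to 87.8% in CMm-EV, and the 3p counts are all miR-181a-2-3p in CPC-EV.

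Ratios that leave out miR-181a-5p were tested across the 4 groups with an exact permutation test over the libraries (two-sided, 15400 divisions, smallest possible p 6.49e-05), with adjustment over the 3 ratios tested. None passed after adjustment. For miR-181a-2-3p to miR-181a-3p the exact permutation p was 0.0458, adjusted 0.120. miR-181a-3p had no count after rounding in 6 of the 12 libraries, all of CPC-EV among them. In such libraries the ratio moves with depth and with the pseudocount of 0.5 counts. Since a 0 allows up to 3 counts, the true ratio can also be lower than the value used. In hiPSC-EV 2 the deposited value was above 0 (0.110 RPM). Leaving out hiPSC-EV 2 or CMi-EV 3 brought the adjusted exact permutation p to 0.0493 or 0.0271. For miR-181c-5p plus miR-181d-5p over miR-181b-5p, the exact permutation p was 0.0803, adjusted 0.120, with counts of both in 7 of the 12 libraries. miR-181c-5p and miR-181d-5p were both counted in only 2 of the 12 libraries, and nothing is read from the test of their ratio.

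Fold changes were taken from the edgeR fits of all miRNA with at least 5 CPM in the 3 libraries of 1 group, and a miRNA was called when its FDR was below 0.05 and its log2 fold change was 1 or more either way. Since the level of miR-181a-5p chose the family, the counts of calls are descriptions, and nothing is read from them. From hiPSC-EV to CPC-EV, 3 of the 6 members passed the filter and none was called. Both miR-181a-5p and miR-181b-5p passed only through hiPSC-EV, where their means were higher. Of the 338 tested miRNA, 27.5% were called and 11.5% were called as higher. DESeq2 called 0 of the members as well, and 108 of the 338. The log2 fold change was -2.52 (SE 1.32) for miR-181a-5p, -0.91 (SE 1.99) for miR-181b-5p and 1.48 (SE 0.80) for miR-181a-2-3p. The value of miR-181b-5p rests on CPC-EV 3, without which the miRNA had no count in CPC-EV and was called as lower. The groups did not overlap for miR-181a-5p, lower in CPC-EV, and for miR-181a-2-3p, higher in CPC-EV. Of all tested miRNA, 53.6% did not overlap in either direction, 16% were higher without overlap, and the median log2 fold change was -0.27.

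From CPC-EV to CMi-EV, miR-181a-5p was higher by 4.75 on the log2 scale (SE 1.16), miR-181a-2-3p by 3.81 (SE 0.52) and miR-181b-5p by 3.42 (SE 1.92). These 3 members passed the filter, their groups did not overlap, and 2 of them were called, miR-181a-5p and miR-181a-2-3p. Both miR-181a-5p and miR-181b-5p passed only through CMi-EV, where they were higher, so the call of miR-181a-5p is not read as support. Among the 292 tested miRNA, 28.4% were called, 14.4% as higher, 49.7% did not overlap in either direction, 22.6% were higher without overlap, and the median was -0.05. The call of miR-181a-5p was lost without any 1 of CPC-EV 2, CPC-EV 3, CMi-EV 1, CMi-EV 2 and CMi-EV 3, and with library size only (4.26) or filterByExpr (4.71), with the log2 fold change between 4.16 and 5.20 over the 6 libraries left out in turn. Without CPC-EV 3, miR-181b-5p had no count in CPC-EV, and its change from CPC-EV was then called.

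From CMi-EV to CMm-EV, miR-181a-5p was higher by 3.66 (SE 0.32) and miR-181b-5p by 1.96 (SE 0.45), and both were called. miR-181a-3p was higher by 3.13 (SE 1.89) and was not called, with its CMi-EV level resting on CMi-EV 3. It passed the filter only through CMm-EV, where it was higher. Without CMi-EV 3 it had no count in CMi-EV and was called as higher, as it was without a filter (3.20). miR-181a-2-3p differed by 0.49 (SE 0.48), within the overlap of its groups. Of the 247 tested miRNA, 16.6% were called, 6.48% as higher, 44.9% did not overlap in either direction, 21.1% were higher without overlap, and the median was -0.30. The call of miR-181b-5p was lost without any 1 of CMi-EV 1, CMi-EV 2, CMm-EV 1 and CMm-EV 2, with log2 fold changes of 1.81 to 2.08, and with library size only (1.49) or dispersions from all 12 libraries (2.12).

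In the comparison of the ends of the series, CMm-EV and hiPSC-EV, miR-181a-5p was higher in CMm-EV by 5.28 (SE 0.54), miR-181a-2-3p by 5.27 (SE 0.44), miR-181a-3p by 5.04 (SE 1.17) and miR-181b-5p by 3.84 (SE 0.47), all on the log2 scale. All 4 members that passed the filter were called and did not overlap. Of these, miR-181a-3p passed only through CMm-EV, where it was higher, so its call is not read as support. Of the 336 tested miRNA, 53.6% were called, 16.1% as higher, 72% did not overlap in either direction, and 24.4% were higher without overlap. The median of all tested miRNA was -1.53. The call of miR-181a-3p was lost without hiPSC-EV 3 (5.10) and with dispersions from all 12 libraries (5.45). The 4 comparisons share groups and are not independent of each other. The miRNA lists of cardiomyocytes and of smooth muscle and fibroblasts were higher in CMi-EV and CMm-EV, as the family was, and also higher in CPC-EV than in hiPSC-EV, where miR-181a-5p was lower. Their part in the result was not tested.

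**Figure D4:**
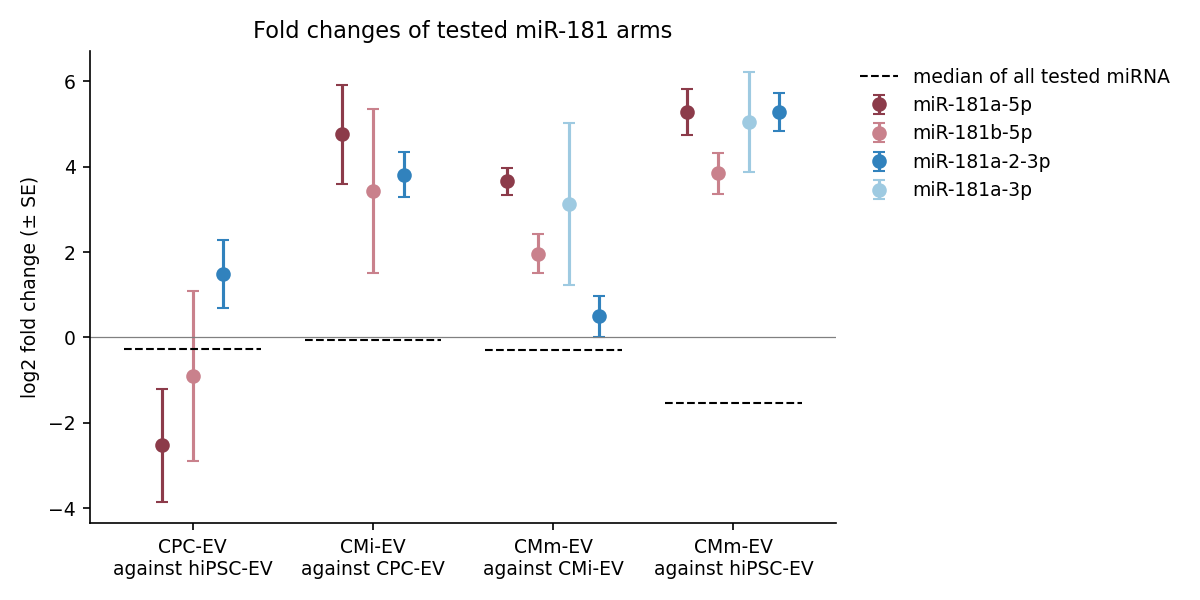
log2 fold change with its standard error for the members that passed the filter in each of the 4 comparisons, positive when higher in the group named first on the axis label; dashed lines are the medians of all tested miRNA. In CPC-EV against hiPSC-EV, miR-181a-5p (-2.52) and miR-181a-2-3p (1.48) lie on opposite sides of 0, and in CMm-EV against hiPSC-EV all 4 are between 3.84 and 5.28.

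Of the other arms, miR-181c-3p was measured at 45.5 ± 17.8 CPM in hiPSC-EV, 27.2 ± 33.3 CPM in CPC-EV, and 35.5 ± 23.6 and 66.8 ± 18.6 CPM in CMi-EV and CMm-EV, and was thus above its partner miR-181c-5p in the mean of every group. miR-181b-3p had 6 counts in all of hiPSC-EV and 94 in CMm-EV. Among 368 miRNA, the course most like that of miR-181a-5p was that of miR-181b-5p, with a root mean square difference of 1.49 in log2(CPM + 1) centred on the mean over the 12 libraries, against a median of 4.28. miR-152-3p (1.64) and miR-887-3p (1.67) came next. For miR-181b-5p the order was miR-181a-5p (1.49), miR-152-3p (1.63) and miR-887-3p (1.81), against a median of 3.91. The closest to miR-181c-5p were miR-27b-3p (1.22), miR-215-5p (1.25) and miR-27a-3p (1.26), and to miR-181d-5p miR-605-3p (1.82), miR-576-5p (2.05) and miR-452-5p (2.13), with medians of 2.57 and 3.16. miR-181c-5p had no count in 9 libraries, and the measure then compares a nearly flat course.

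Fragments of longer transcripts, counted in the same libraries against GENCODE, were looked up for the genes around the hairpins. These counts cannot stand for cellular mRNA, and library totals in this class ran from 131318 to 1908307. MIR181A1HG had no count after rounding in any library, and MIR181A2HG and NANOS3 were not analysed here. NR6A1, an orphan nuclear receptor that represses pluripotency genes during differentiation, lies opposite to MIR181A2 and MIR181B2. Its fragments had 24, 54 and 113 counts in hiPSC-EV and 194, 223 and 109 in CPC-EV, then 56, 36 and 18 in CMi-EV, with none in CMm-EV. In CPM on library size this was 67.4 ± 9.69, 187 ± 48.9, 93.3 ± 28.5 and 0, the last not detectable at this depth. The change from hiPSC-EV to CPC-EV of 0.56 (SE 0.58) did not pass (edgeR with TMM, FDR 0.627; 1.53 and FDR 0.128 with library size only, the scale of these CPM), nor did that from CPC-EV to CMi-EV of -0.85 (SE 0.69; edgeR, FDR 0.419). In CMm-EV, NR6A1 was at least 6.61-fold lower relative to CMi-EV and at least 4.77-fold lower relative to hiPSC-EV. It passed the filter in both only through the group where it was higher, so its calls there are not read as support. The call against CMi-EV, where 8.13% of the 775 tested genes were called, was also lost with library size only, filterByExpr and without any 1 of CMi-EV 2, CMm-EV 1, CMm-EV 2 and CMm-EV 3. In each of these settings 0 of all tested genes were called, so the loss is not particular to NR6A1. In the comparison with hiPSC-EV, 52.4% of the 1911 tested genes were called, 874 of them as lower. Whether the counting used strand is not given in the sources used here.

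A list of 31 genes that are known as targets of miR-181 was looked up in the same fragments, and 27 were in the table. From hiPSC-EV to CPC-EV none of the 5 tested was called by edgeR, with 1 at an unadjusted p under 0.05 and 11.8% of all tested genes called. From CPC-EV to CMi-EV none of the 3 tested was called (1 at an unadjusted p under 0.05, 29.4% of all called), and from CMi-EV to CMm-EV none of the 2 tested (1 at an unadjusted p under 0.05, 8.13% of all called). Between CMm-EV and hiPSC-EV, 3 of the 5 tested were called, where 52.4% of all tested genes were called and their median log2 fold change was -2.46. Fragments of the RNA-binding pluripotency factor LIN28A had 69, 131 and 324 counts in hiPSC-EV and none in CMm-EV. Those of the cardiac and endodermal transcription factor GATA6 had none in hiPSC-EV and 10, 35 and 21 counts in CMm-EV. Each passed the filter only through the group where it was high, so its call is no support for a change of the list. The other one of the 3 most abundant, PTPN11, which encodes a tyrosine phosphatase, differed by -4.00 (SE 1.61) and was not called (edgeR, FDR 0.0722).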

How the data were processed

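Small RNA of 12 EV preparations had been sequenced after density gradient isolation. The authors aligned the reads with exceRpt 4.6.2 to hg38 with miRBase 21 and deposited expected counts per miRNA and per GENCODE gene, in which reads matching several sequences are shared out, and RPM beside them. The submitters' notes name edgeR 3.24.0. Here the deposited expected counts were rounded, and fitted with the quasi-likelihood test of edgeR 4.0.16 (R 4.3.3, two-sided, 6 libraries per comparison, TMM, Benjamini-Hochberg adjustment over all tested features). Features needed 5 CPM in all 3 libraries of 1 group. CPM of miRNA are TMM-normalized over 12 libraries, and those of GENCODE genes are on library size. A group without counts was set against 3 counts per library, averaged over the group. The alternatives were other scalings, filters, DESeq2 1.42.0, shared dispersions, a replicate term and each library left out. The code was tested on simulated data. Permutation tests were written with numpy 2.4.6, and the exact intervals used scipy 1.17.1.

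The members, gene lists and named genes were chosen with earlier results of these data known. Named were all members, the other miR-181 arms, the 3 miRNA most alike to each 5p member, the host genes, and the called and the 3 most abundant targets, of which 1 is not reported here. miR-181b-2-3p and miR-181d-3p were not analysed here. Replicates are 3 cultures of 1 cell line.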

Additional observations from a re-analysis of the deposited data

How the results depend on the processing

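Of 182 values of single members under other settings, 159 kept their direction and their side of the threshold, 16 lost the call, 6 gained it and 1 turned, miR-181a-2-3p from CMi-EV to CMm-EV, at -0.10 with library size only, a scaling that moved the median of all tested miRNA from -0.30 to -0.92. The family share was lower in every group by the authors' RPM, at 0.0138%, 0.00628%, 0.0873% and 0.445% in the order of the stages, and as a share of 5 RNA classes, at 0.0156%, 0.00755%, 0.101% and 0.508%, since these totals hold more than miRNA. Members called from hiPSC-EV to CPC-EV were 1 without a filter and 0 to 1 when a library was left out. All miRNA called were 79 of 1031 without a filter and 75 to 129 with a library left out, against 93 of 338 in the main fit. From CPC-EV to CMi-EV the members called were 1 with library size only, 4 without a filter, 1 with filterByExpr and 1 to 2 with a library left out. All miRNA called were 87 of 292, 91 of 713, 73 of 341 and 72 to 102 in the same order, against 83 of 292 in the main fit. From CMi-EV to CMm-EV the members called were 3 without a filter, 1 with library size only and 1 with dispersions from all 12 libraries. They were 1 with a replicate block and 1 to 3 with a library left out. All miRNA called were 47 of 650, 52 of 247, 43 of 247, 17 of 247 and 20 to 60 in the same order, against 41 of 247 in the main fit. The counts of members are thus not read as particular to the family. The cause was not tested. With a library left out, the adjusted exact permutation p of the ratio of miR-181a-2-3p to miR-181a-3p ran from 0.0271 to 0.256. The targets called then numbered 0 to 2, 0 to 2, 0 to 1 and 3 to 7 in the 4 comparisons in the order of the report. All genes called numbered 0 to 529, 604 to 1094, 0 to 326 and 1103 to 2243 in these fits. The 7 came without hiPSC-EV 1, where 2243 of 3618 tested genes were called, against 1002 of 1911 in the main fit. Nothing is read from it about the targets. With the replicate block, the log2 fold change of miR-181b-5p was -6.16 from hiPSC-EV to CPC-EV, 7.66 from CPC-EV to CMi-EV and 2.13, no longer called, from CMi-EV to CMm-EV, where that of miR-181a-3p was 8.09. With it, NR6A1 was called in neither comparison with CMm-EV (edgeR, FDR 0.207 against CMi-EV and 0.0509 against hiPSC-EV). Of all tested genes, 0 of 775 were called against CMi-EV and 305 of 1911 against hiPSC-EV, with 1 target among the latter. The adjusted exact permutation p of both ratios with a stated p was 0.180 with the replicate block. Same-numbered libraries did not deviate together (r between -0.121 and 0.0965 across miRNA), so no pairing by number was seen. Whether they came from the same differentiation run is not given in the sources used here. miR-181c-5p and miR-181d-5p were at 0 in many libraries, and the values of CPC-EV rest on few counts, at most 177 for a member in a library.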
